A study of Mus musculus with 2 samples.

Results

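The 10 genes described here encode ligands, antagonists, decoys and receptors of the interleukin 1 (IL-1) and interleukin 18 (IL-18) systems, apart from IL-33 and its receptor. They were chosen by symbol, and every array probe whose RefSeq accession maps to one of them was used, which gave 15 of the 56605 probes and 10 of the 22911 genes named on the arrays. Regulatory T cells (Tregs) had been sorted from mouse kidney on day 28 after the induction of cGN, a kidney injury triggered by antibody to the glomerular basement membrane (anti-GBM). Cells were taken by surface CD45, CD3e and CD4 together with the FoxP3-hCD2 reporter, in which human CD2 marks Foxp3 expression. Their RNA, carrying Cy3, was measured on 2 single-colour arrays, 1 for anti-GBM lot I and 1 for lot M. Both samples had the same induction, day, tissue and sort, and the sources used here do not give strain, age or the number of mice behind each sample. The titles number them as repeats, while the labels state that disease severity varied with the lot. No sample of uninjured kidney, or of T cells from another organ, was analysed here. With 1 array per lot there is no replicate check, so no test was run, and every difference describes these 2 arrays.

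The deposited sources disagree on which array belongs to which lot. By the scanner output array 1 is lot I and array 2 is lot M, whereas the columns of the deposited value table carry the opposite labels. For Il18rap, for example, the scanner output gives the higher reading to lot I (a signal of 526 against 423), and the value table gives it to lot M (a ratio of 1.84 against 1.52). The arrays are therefore named by number, and differences are array 2 minus array 1 on a log2 scale. The scanner software calls each spot well above background or not, and the share of probes so called was 54.0% on both arrays. The scanner's own quality summary was in range for array 1 and asked for an evaluation of array 2. For the spike-in controls it listed a detection limit of 0.998 on array 1 and -1 on array 2. The spike-in slopes were 0.938 and 0.910.

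IL-1 alpha and IL-1 beta bind the same receptor, IL-1R1, which recruits an accessory chain and signals through the adaptor MyD88 to NF-kB. IL-1R2 binds the same ligands but lacks the cytoplasmic signalling domain, so it acts as a decoy, and the IL-1 receptor antagonist occupies IL-1R1 without starting a signal. IL-18 uses a related pair of chains encoded by Il18r1 and Il18rap and is held in check by a soluble binding protein. Activated Tregs are known to carry IL-1R2, and IL-18 is known to be made by epithelial cells as well as by myeloid cells.

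Of the 10 genes, 9 were well above background on both arrays, and Il1a was on neither. Of all 22911 genes named on the arrays, 13743 were well above background on both. Readings from different probes are not comparable as amounts of RNA, so each gene is compared only with itself. The start-site windows below are those of Il1a, the gene not measured, of Il1b, its neighbour on the same chromosome, which was measured, and of Il1rn, the antagonist of both. Each is the 250 bases before a start site, read 5′ to 3′ on the strand of the gene, from RefSeq on build GRCm38.p6, and of 3 listed starts of Il1rn the first is shown. Capitals mark matches on either strand to TATAAA, the box known to position transcription starts, or to TGAGTCA (the AP-1 motif).
Il1a, chr2:129309973-129310222, minus strand: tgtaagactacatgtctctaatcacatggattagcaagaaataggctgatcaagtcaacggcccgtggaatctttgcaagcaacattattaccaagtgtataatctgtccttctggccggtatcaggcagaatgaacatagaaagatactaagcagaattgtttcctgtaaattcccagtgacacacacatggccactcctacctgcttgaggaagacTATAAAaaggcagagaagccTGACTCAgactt
Il1b, chr2:129371140-129371389, minus strand: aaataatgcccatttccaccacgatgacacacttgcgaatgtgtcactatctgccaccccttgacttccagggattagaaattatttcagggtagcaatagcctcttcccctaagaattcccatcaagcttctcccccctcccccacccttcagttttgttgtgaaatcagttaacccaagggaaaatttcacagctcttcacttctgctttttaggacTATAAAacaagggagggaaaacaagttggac
Il1rn, chr2:24336610-24336859, plus strand: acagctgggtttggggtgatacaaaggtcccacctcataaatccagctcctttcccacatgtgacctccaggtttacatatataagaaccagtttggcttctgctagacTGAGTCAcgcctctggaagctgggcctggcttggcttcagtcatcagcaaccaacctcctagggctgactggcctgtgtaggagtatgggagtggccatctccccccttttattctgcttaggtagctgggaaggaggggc

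Windows of 3 of the 9 genes with an entry, 3 of 14 windows, held TATAAA on either strand. Those of Il1a and Il1b started 32 and 31 bases before the start site. The match of Il18 began 175 bases before it and lay on the opposite strand, reading TTTATA. The undetected Il1a and the detected Il1b thus shared TATAAA on the gene strand. TATAAA was found in 12.4% of all 32851 RefSeq start-site windows of the same length. The AP-1 motif, found in 4.46% of all windows, lay 12 bases before the start of Il1a and 141 bases before the start of Il1rn. AGATAA, a motif of GATA factors found in 9.99% of all windows, was in none of the 14 windows of the 9 genes with an entry. A motif match describes these letters and is not evidence of a bound factor.

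Il1a, which encodes the IL-1 ligand that cells can release without processing, gave no signal above background. Its single probe had a processed signal (the scanner's background-corrected intensity, in arbitrary units) of 2.34 on array 1 and 2.35 on array 2. The 308 negative control spots had a median of 2.58 on array 1 and 2.56 on array 2, so the probe read at the level of spots made to bind nothing. Before correction its raw intensity was 35 and 36, against a local background of 31 and 30. The lowest signal of any probe well above background was 11.6 on array 1 and 11.7 on array 2. The array bounds the Il1a signal by these floors and does not show that the transcript was absent.

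**Figure D1:**
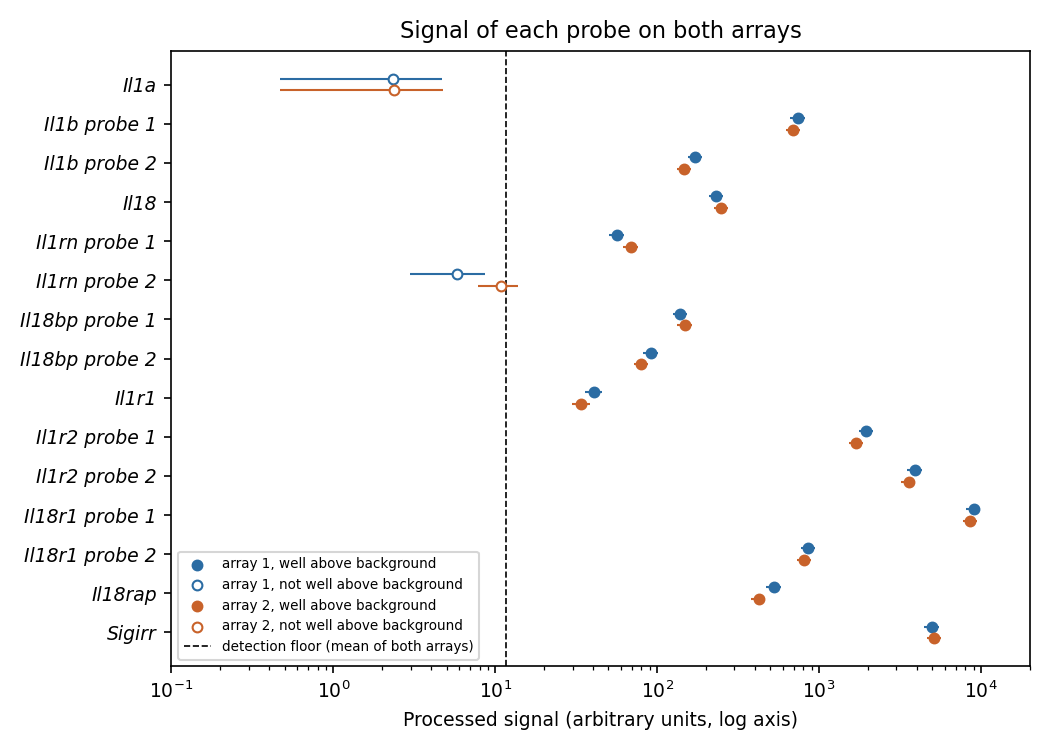
Processed signal of each of the 15 probes (log axis, arbitrary units) on array 1 (blue) and array 2 (orange), with bars for the scanner's error of each spot. Open circles are probes not well above background, and the lower bars of Il1a are cut short to fit the log axis. Il1a and the second Il1rn probe lie left of the detection floor, and the other 13 probes lie right of it with closely similar readings on both arrays.

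Il1b, which encodes the IL-1 ligand that caspase-1 processes, was detected by both of its probes on both arrays. The first probe had a signal of 739.8 on array 1 and 692 on array 2, and the second 171 and 147. Both probes thus read lower on array 2. The gene difference, the mean over its probes, was -0.13 ± 0.15. The error here and below is the one that the scanner software estimates per spot, and it leaves out variation between mice, sorts or lots. For 289 probes with at least 5 spots, repeated spots had a median log2 SD of 0.035 on array 1 and 0.034 on array 2. The scanner error of a difference had a median of 0.205 over probes with 1 spot. A difference within its error can therefore exceed the scatter of repeated spots. A gene on the opposite strand, Il1bos, overlaps Il1b and was well above background on neither array. Genes of macrophages and monocytes, which are known to make IL-1 beta, were also measured in the RNA of these sorted cells. Of that list 11 of 12 genes were well above background on both arrays, and 10 of the 11 were higher on array 2, with a median difference of 0.28. Adgre1, which encodes F4/80, differed by 0.46 and Csf1r by 0.27, while Ccr2 (-0.41) was the gene lower on array 2. The Il1b difference was within its error. The summed level of the list, as signal over the array's 75th percentile, was 127 on array 1 and 141 on array 2. Such sums add readings of different probes and follow the brightest, here Ly6c2, which T cells are also known to express, and without it they were 22.9 and 26.5. Neutrophil genes were measured in 5 of 10 cases, with summed levels of 75.1 and 71.3. In that list S100a8 (0.28), S100a9 (0.39) and Retnlg (0.98 ± 0.37) were higher on array 2, Elane (-0.21) and Csf3r (-0.14) were lower, and the median was 0.28. Retnlg had a log2 level of -4.40 on array 1, next to the floor of -4.62. Mpo was well above background on array 1 alone, at least 2.11-fold higher there, and Camp, Ngp and Cxcr2 were on neither array. Csf3r made most of the neutrophil sum, and without it the sums were 8.09 and 10.4, in the other order. The part that such cells had in the Il1b signal was not tested. In bulk RNA, fewer cells of a type and less RNA per cell cannot be told apart.

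Il18, which encodes a ligand that promotes interferon gamma production, had 1 probe, with a signal of 232 on array 1 and 249 on array 2. The difference was 0.13 ± 0.21, smaller than its error. Bco2 and Tex12 overlap the Il18 gene. Tex12 was well above background on neither array, and Bco2 differed by -0.19 ± 0.23, in the opposite direction from Il18. Most genes of the kidney tubule lists differed more than Il18. All 8 genes of the proximal tubule list were measured, 7 were higher on array 2 and Aqp1 (-0.15) was lower. The median was 1.17, with summed levels of 14.6 and 31.0. Lrp2, the endocytic receptor megalin, and the phosphate transporter gene Slc34a1 each differed by 1.20. The distal nephron and collecting duct genes, also measured in 8 of 8 genes, had a median of 0.58. Of these, 7 were higher on array 2. Aqp2 differed by 1.60 and Umod by 0.42, while Calb1 (0.07) and Slc4a1 (-0.0004) differed less than Il18. The summed levels were 91.0 and 122. Without Umod, the brightest of that list, the sums were 8.24 and 11.6. The part of tubular RNA in the Il18 signal was not tested.

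Il1rn, which encodes the IL-1 receptor antagonist, had the largest difference of the 9 measured genes in size, 0.33 against -0.28 for Il18rap. Under 3 alternatives that of Il18rap was larger: spike-in scaling (0.25 for Il1rn and -0.36 for Il18rap), no scaling (0.30 and -0.32) and normexp (0.17 and -0.24). Its brighter probe had a signal of 56.2 ± 6.16 on array 1 and 69.0 ± 7.34 on array 2, a difference of 0.33 ± 0.22. Its other probe was well above background on neither array, with signals of 5.81 and 10.8, below the floors. The dim probe was also higher on array 2, but its difference of 0.92 ± 0.81 barely exceeded its own error. Where that probe was admitted, with no filter on dim probes or with a laxer detection flag, the difference of the gene became 0.63. Il1rn and the macrophage list were both higher on array 2, and their relation was not tested. Il18bp, which encodes the soluble binding protein that neutralises IL-18, had 2 probes that disagreed in sign. The first read 139 on array 1 and 148 on array 2 (0.13 ± 0.21), and the second read 91.0 and 79.9 (-0.16 ± 0.21). The mean of -0.02 ± 0.15 carries no direction, and it turned positive under normexp background correction, lowess centring and use of the brightest probe.

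The genes of the decoy and of the signalling receptor for IL-1 were both detected. Il1r2, the decoy receptor, had a signal of 1953 on array 1 and 1702 on array 2 with its first probe and of 3903 and 3566 with its second. All 4 readings lay far above the floors, and both probes were somewhat lower on array 2, with a gene difference of -0.13 ± 0.14. Gm16894, which overlaps Il1r2, read 354 and 304, a difference of -0.19 ± 0.20. Il1r1, the signalling receptor, had 1 probe, with a signal of 40.6 ± 4.98 on array 1 and 34.1 ± 4.43 on array 2. Both readings lay close to the floor, 1.80 and 1.54 log2 units above it, and the difference of -0.22 ± 0.26 was within its error. Requiring 4 times the floor removed Il1r1 and left 8 measured genes. Endothelial cells and fibroblasts are known to express Il1r1, and their markers were measured in part. The endothelial list had 5 of 6 genes measured, a median of -0.08 and summed levels of 3.30 and 3.17, with Pecam1 at -0.24, Cdh5 at -0.43 and Egfl7 at -0.08 lower on array 2, and Emcn at 0.27 and Kdr at 0.03 higher. The list for fibroblasts and mesangium had 3 of 6 genes measured and summed levels of 0.448 and 0.519, with Col1a1 at 0.35, Col1a2 at 0.40 and Dcn at -0.41. Without Col1a2, the brightest, the sums were 0.204 and 0.195, in the other order. Pdgfra was well above background on array 1 alone (at least 2.36-fold higher there), Col3a1 on array 2 alone (at least 1.21-fold) and Pdgfrb on neither. Their part in the Il1r1 signal was not tested.

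Both chains of the IL-18 receptor were detected. Il18r1, the chain that binds IL-18, had a signal of 9025 on array 1 and 8565 on array 2 with one probe. A probe designed on another of its transcripts read 855 and 806. The 2 probes gave nearly the same difference, -0.04 and -0.06, and the gene difference was -0.05 ± 0.14. Il18rap, the accessory chain that the receptor needs to signal, had 1 probe, with a signal of 526 ± 52.6 on array 1 and 423 ± 42.3 on array 2. Its difference of -0.28 ± 0.20 (1.22-fold higher on array 1) was the largest of the 9 in that direction. Of all 13743 genes measured on both arrays, 5.39% had a more negative difference. Among the 1902 genes within 0.5 of its mean level, the central 95% of differences ran from -0.26 to 0.69, so Il18rap lay just outside that range, and the other 8 genes lay inside their own. Natural killer and CD8 T cells are also known to express Il18rap. In the list for those cells 7 of 8 genes were measured, with a median of 0.20 and summed levels of 17.0 and 18.4. Of the 7, 4 were higher on array 2, namely Cd8a (0.21), Cd8b1 (0.20) and, each on 1 measured probe and past 2-fold, Klra8 (1.92 ± 0.27) and Eomes (1.19 ± 0.26). On array 1 the log2 levels of Klra8 (-3.56), Eomes (-3.47) and Klrb1c (-3.72) were near the floor of -4.62. Their other probes were not well above background on both arrays. Gzmb (-0.27), Klrb1c (-0.24) and Prf1 (-0.09) were lower, as Il18rap was, and Ncr1 was well above background on neither array. Without Cd8b1, the brightest of that list, the sums were 5.23 and 4.90, in the other order. The part of such cells in the Il18rap signal was not tested. Sigirr, which encodes a single-immunoglobulin receptor known to restrain IL-1 and IL-18 signalling, read 4969 on array 1 and 5158 on array 2, a difference of 0.09 ± 0.20.

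**Figure D2:**
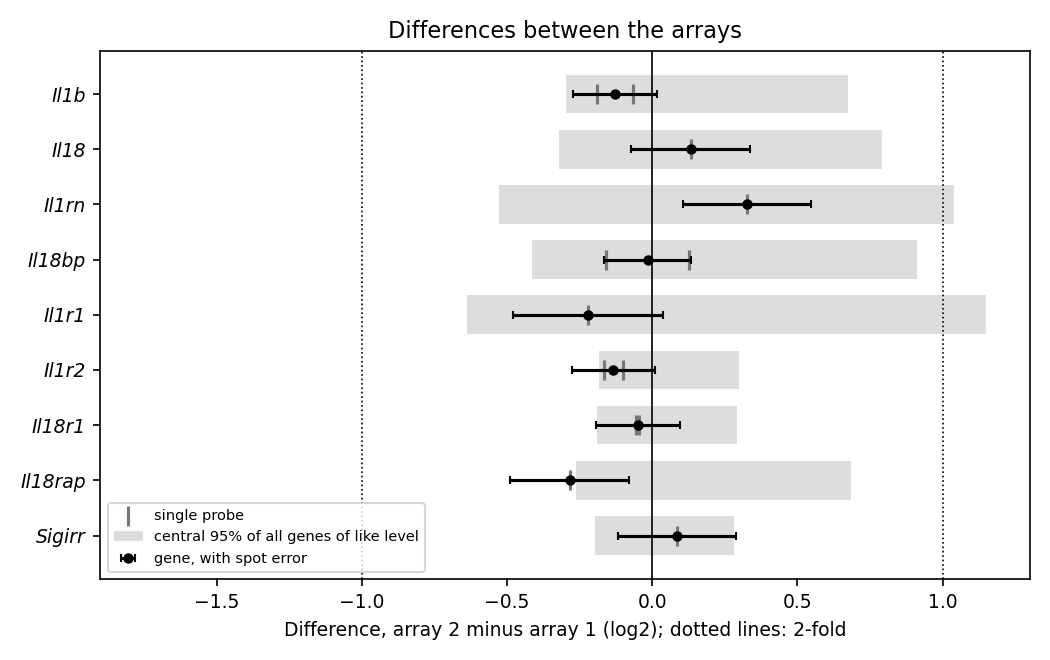
Difference between the arrays (array 2 minus array 1, log2) for the 9 measured genes, with the error of single spots as bars, single probes as ticks and, in grey, the central 95% of all genes within 0.5 of the same mean level. All genes lie well inside the 2-fold limits (dotted), Il1rn (0.33) and Il18rap (-0.28) lie farthest from 0, and Il18rap alone lies outside its grey range.

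Il1r2, Il1r1, Il1rl2, Il1rl1, Il18r1 and Il18rap follow each other on chromosome 1 with no other coding gene between them, a receptor cluster by position only. Of its 6 genes 5 were well above background on both arrays. Il1rl2, which encodes the receptor of the IL-36 cytokines, was not on either. Il1rl1, the IL-33 receptor that stands outside the 10 genes described here, differed by 0.06 ± 0.12, and the other 4 measured genes of the cluster, described above, had negative differences from -0.28 to -0.05. Each of these was under 1.5 times its error. Scaling by spike-in controls in place of the 75th percentile would lower every difference in the text by 0.07.

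None of the 9 measured genes differed by 2-fold or more, and none by 1.5-fold. Among all 13743 genes measured on both arrays, 1.43% differed by 2-fold or more in either direction (1.34% higher on array 2 and 0.0873% higher on array 1), and 5.97% by 1.5-fold or more, so a count of 0 among 9 genes is near what the whole array shows. Of the 9, 3 were higher on array 2 (Il18, Il1rn and Sigirr) and 6 were lower, with a median of -0.05. Over all measured genes 7389 were higher and 6354 lower, with a median of 0.01. Of the 9, Il1rn and Il18rap differed by more than 1 spot error, as did 28.6% of all measured genes, and none by more than 2, against 10.2% of all. Larger differences in size than that of Il1rn were found in 14.6% of all measured genes, than that of Il18rap in 17.5%, and than that of Il18bp in 91.2%. Of the 4 genes with several measured probes, 3 had probes of one sign, as did 3128 of 5125 such genes on the whole array.

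**Figure D3:**
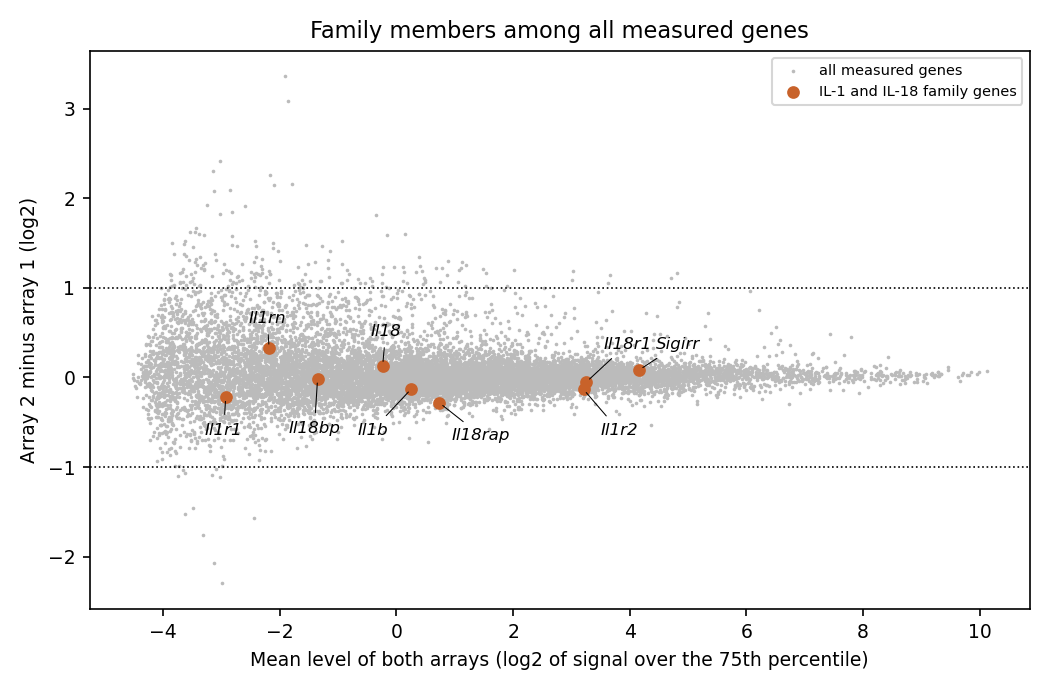
Mean level of both arrays (log2 of signal relative to the 75th percentile) against the difference between arrays (array 2 minus array 1, log2) for all 13743 measured genes (grey), with the 9 measured family genes in orange. The dotted lines are 2-fold limits, and no family gene approaches them. The grey cloud is wide at low levels, where Il1rn and Il1r1 lie, and narrow at high levels, where Il1r2, Il18r1 and Sigirr lie.

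Other genes of the IL-1 family were mostly not detected. Of 12 further ligands, antagonists and receptors on the list, 11 had probes and 2 were measured on both arrays, Il1rl1 and Il1rap. Il1rap, the accessory chain that IL-1R1 and the IL-33 receptor share, differed by -0.12 ± 0.15. Il33 itself was well above background on neither array, nor were Il36b, Il36g, Il36rn, Il1f10, Il1rapl1 and Il1rapl2. Il36a, which encodes an epithelial ligand of the IL-36 receptor, was the exception. Its first probe had a signal of 86.3 on array 1 and 9.47 on array 2, and its second 66.5 and 3.73. Both probes were well above background on array 1 and neither was on array 2. This makes the gene at least 6.33-fold higher on array 1, the mean on a log2 scale of bounds of 7.21 and 5.56. The 2-fold shares of all genes given above leave out genes seen on 1 array only. Each bound sets the level on array 1 against the floor of array 2. The proximal tubule list and the distal nephron and collecting duct list had medians of 1.17 and 0.58, higher on array 2. The part of epithelial RNA in the Il36a signal was not tested. The array table holds the IL-36 ligands under older symbols, Il36a as Il1f6.

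The shared signalling genes downstream of these receptors were almost all detected and close between arrays. Of 17 genes 16 were measured, 9 higher and 7 lower on array 2, with a median of 0.01 and none past 2-fold. Chuk, a kinase of the NF-kB pathway, had the largest difference (-0.26 ± 0.15). Irak3, an inhibitory member of the IRAK family, followed (-0.24 ± 0.13), but its 3 probes ran from -0.53 to 0.01. Irak4, the kinase that MyD88 recruits, came next (0.19 ± 0.21). The adaptor gene Myd88 differed by 0.03 ± 0.20. Peli2 was well above background on neither array. Genes for processing and release of the ligands were measured in 16 of 18 cases, 9 higher and 7 lower, with a median of 0.001 and none past 2-fold. The largest differences were those of Txnip, a redox regulator that binds NLRP3 (0.49 ± 0.14), Aim2, a sensor of cytosolic DNA (-0.43 ± 0.15), and Nlrp1b, another inflammasome sensor (-0.32 ± 0.15). Casp1, the protease that matures IL-1 beta and IL-18, read lower on array 2 by a difference of -0.23 ± 0.20, and Pycard, the adaptor that activates it, differed by 0.04 ± 0.20. The inflammasome sensor genes Nlrp3 and Nlrp6 were well above background on neither array.

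Genes that IL-1 or IL-18 is known to induce were measured in 14 of 15 cases, 8 higher and 6 lower on array 2, with a median of 0.03 and none past 2-fold. Il6 (0.82 ± 0.15), the chemokine gene Ccl2 (0.73 ± 0.21) and the chemokine gene Cxcl1 (0.64 ± 0.28) had the largest differences, and each was over 2 errors. Of all measured genes, 10.2% were over 2 errors. Cxcl1 had 1 probe, at log2 levels of -3.61 on array 1 and -2.96 on array 2, near the floors of -4.62 and -4.58. Vcam1 (0.57 ± 0.18), with probes at 0.05 and 1.09, was also over 2 errors. Csf2 was over 2 errors in the other direction (-0.43 ± 0.20). Both probes of Il6 were higher on array 2, by 0.68 and 0.97. The macrophage and tubule lists, with the medians given above, were higher on array 2, and their part in Il6, Ccl2 and Cxcl1 was not tested. Ifng, a target of IL-18 in T cells, differed by -0.15 ± 0.20, and Il17a was well above background on neither array. Spike-in scaling and the absence of scaling moved the medians of the lists for signalling, processing and induced genes by up to 0.07. Spike-in scaling turned all 3 of these medians negative, so they carry no direction.

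The sorted population was checked against its markers. All 8 Treg genes, Foxp3 and Il2ra among them, were detected on both arrays and had a median difference of 0.02, as were all 8 T cell genes, with Cd3e at 0.11, Cd4 at -0.02 and a median of -0.01. Of the remaining lists, dendritic cell genes were measured in 5 of 6 cases, 3 higher and 2 lower on array 2 (median 0.05). Flt3 differed by 0.37, Zbtb46 by -0.51 and Cd209a by -0.30, and Xcr1 was well above background on array 1 alone. B cell genes were measured in 4 of 5 cases, 1 higher and 3 lower (median -0.32, Ms4a1 at -0.39). Mast cell and basophil genes were measured in 2 of 6 (median 0.23, with Cpa3 and Mcpt8 well above background on neither array).

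**Figure D4:**
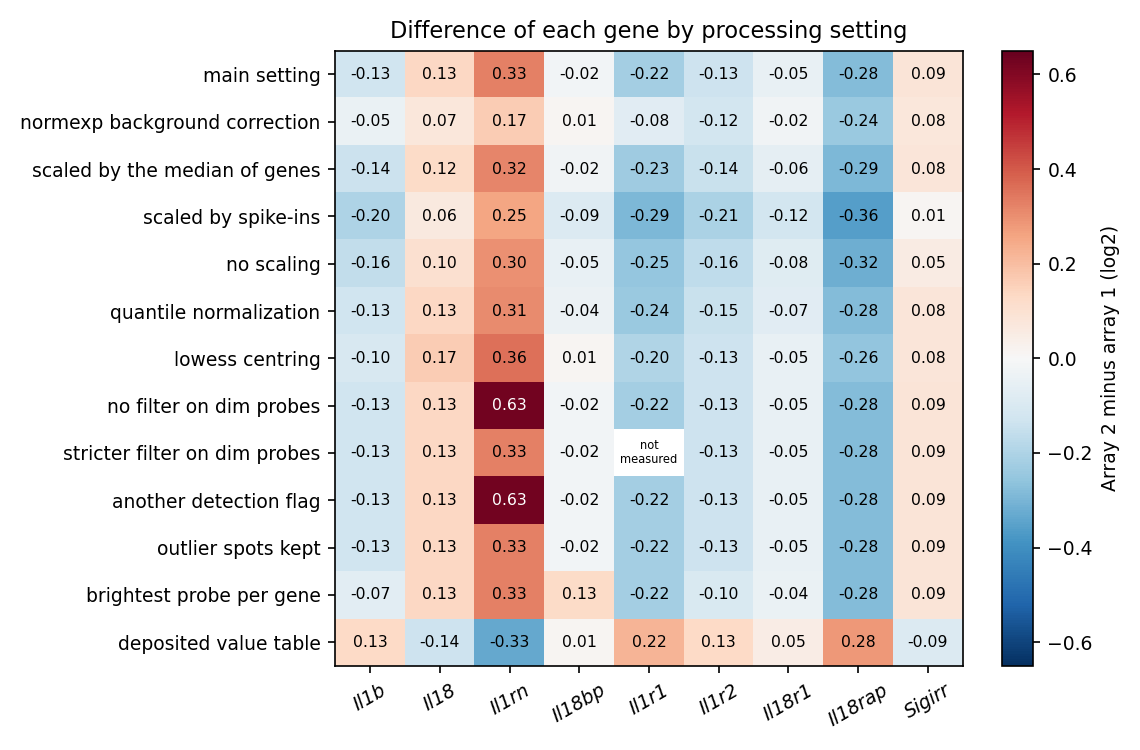
Difference between arrays (log2, written in each cell and coloured) for the 9 measured genes under the main setting and 12 alternatives. Il18bp changes sign in 3 alternatives besides the value table, Il1rn grows to 0.63 when its dim probe is admitted, and the bottom line, the deposited value table taken by its labels, turns every sign because its columns are exchanged.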

How the data were processed

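Agilent Feature Extraction 10.7.1.1 read the spots, per the submitters' processing notes. The processed signal intensity used here was corrected for background and spatial trend on each array separately, per the file headers. Raw intensities, local backgrounds and other flags per spot were also used as deposited. The deposited value table held a ratio per probe (column medians 0.070 and 0.069), by steps not stated. It equals the signal over 1 constant per array: log2 signal over value had an SD of 0.000300 and 0.000395 against the column of the other lot, and of 0.156 and 0.181 against that of the same lot. Scale and centring follow from this, and the assignment to lots stays unknown.

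Levels were log2 signals minus the log2 of the 75th percentile over non-control probes of the same array (286 and 279.5). Outlier spots (75 and 56) were left out, and none was saturated. RefSeq accessions (GRCm38.p6 table, names only, since the headers name another build) gave 58.3% of probes a symbol. Gene differences averaged the probes well above background on both arrays. No test was run, for want of replicates, and 2-fold was the counting limit. The number of arrays limits the precision. Protocol and scan day were the same for both arrays. Python 3.11.15, statsmodels 0.14.6 (lowess, span 0.3) and limma 3.58.1 (normexp, offset 50) were used, and the gene step was tested on simulated data.

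The genes, lists and alternatives were chosen with earlier results of these data known. The naming rule took all 10 genes, the first 2 of each marker list and, of each pathway list, genes past 2-fold or on 1 array only, or else the 3 with the largest differences. Myd88, Casp1, Pycard, Ifng, Csf2, Vcam1, Il1rap, genes well above background on neither array, overlapping genes, further markers, the motifs and the windows shown were named after their values were seen. The rule also takes 1 marker gene that is not reported here.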

Additional observations from a re-analysis of the deposited data

How the results depend on the processing

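Under all 12 alternatives none of the measured genes passed 2-fold. Limits of 1.5 and 4 were counted under the main setting only, and none passed them there. Where its dim probe was admitted, Il1rn differed by 0.63, which is past 1.5-fold. Apart from the value table, whose exchanged columns turn the signs of all 9 genes, 8 genes kept their sign under every alternative in which they were measured. Il18bp, near 0, did not under 3 of them. By the labels of the value table the differences of Il18rap, Il1r1, Il1r2, Il1b, Il18 and Il1rn were 0.28, 0.22, 0.13, 0.13, -0.14 and -0.33. The count of all genes past 2-fold, 184 higher on array 2 and 12 higher on array 1, depended on the setting. It was 28 and 0 with normexp, 84 and 1 with the stricter filter, 648 and 399 with no filter, 440 and 229 with the other detection flag, and 13 and 186 by the value table. At a limit of 1.5-fold it was 709 and 112, and at 4-fold 9 and 2. The normexp counts have an offset of 50 by construction, which shrinks low signals. The value table reverses the order of the counts because its columns are exchanged, and another fold limit changes the count by definition. The cause of the shifts with the filters and the other detection flag was not tested. Differences of dim genes (Il1r1, Il1rn) are limited by signal over background. No paired analysis was possible because each lot has 1 array.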
